A study of Mus musculus with 6 samples.

Results

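The genes described here are 45 genes of DNA replication and S phase, out of 51826 genes in each table. They were taken from a list of gene names by a rule that uses no measured value. The list itself was chosen with earlier results of these data known. All 45 were found by Ensembl identifier and all 45 passed the filter on low counts. They were measured by RNA sequencing of mouse embryonic fibroblasts (MEFs), which are connective-tissue cells taken from embryos into culture, at passage P2-5 and on a C57BL/6 background. Wild-type (Lztr1 +/+) cultures 10, 12 and 16 were compared with Lztr1 +/- (heterozygous) cultures 11, 15 and 18, 3 per genotype, and no treatment was labelled. The protein made from Lztr1 presents proteins of the RAS family to a CUL3 ligase for ubiquitination. The labels describe neither the Lztr1 mutation nor whether each culture had its own embryo, so p-values here reflect only how these cultures spread, and that spread may be technical.

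Replication starts at origins that are licensed in G1, when the origin recognition complex (ORC), Cdc6 and Cdt1 load the MCM2-7 helicase onto DNA. In S phase Mcm10, Cdc45 and the GINS complex turn the loaded helicase into an active one, and DNA polymerases copy the strands with the help of the sliding clamp, its loader and single-strand binding proteins. Many of these genes are transcribed by E2F factors, which the retinoblastoma family holds back until G1 cyclin kinases act, so their transcripts are widely used as a reading of proliferation. In bulk RNA a smaller share of cells in S phase and less transcript per cell cannot be told apart.

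Lztr1 itself, in CPM (counts scaled to library size, with TMM factors), was at 93.9 in wild-type 10, 94.1 in 12 and 83.2 in 16, against 45.9 in heterozygous 11, 45.1 in 15 and 43.8 in 18, and so fitted the genotype label of all 6. Its log2 difference was -1.01 (SE 0.066, adjusted p = 0.00457 by edgeR). Library totals ran from 11025286 to 21885101 expected counts. All 12 fibroblast markers passed the filter, with a summed TPM (a transcript abundance scaled for gene length and library size) of 10863 to 12653 in wild-type and 10487 to 11537 in heterozygous cultures. By fitted mean 9 of the 12 were lower in heterozygous cultures, 5 of them at an unadjusted p under 0.05, with a median log2 difference of -0.19. Over all genes tested 49.6% had a higher fitted mean and 6.65% were lower at that p. Among cultures 10 to 12 alone the median of the markers was -0.48. Among cultures 15 to 18 alone it was 0.059, with 8 of the 12 higher. Cultures 10, 12, 15 and 18 were registered before 11 and 16, and by number the cultures fall into 2 runs, 10 to 12 and 15 to 18. The labels call neither a batch. Differences were also read within these sets, and of 76 such values for the 19 members given in full 33 moved by more than the spread between replicates; those that turn direction between the runs are given with the gene.

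None of the 45 genes passed the gene-wide test between the genotypes (edgeR quasi-likelihood test, Benjamini-Hochberg adjusted p under 0.05 over 14652 genes). The same threshold called 1 gene of all those tested, Lztr1, which is 0.00683%. DESeq2 and limma called none of the 45 either, though DESeq2 gave no adjusted p for 16 of them, and DESeq2 called 112 genes in all (0.764%). At an unadjusted p under 0.05, 6 of the 45 (13.3%) were higher in heterozygous cultures, against 5.56% of all genes tested: Orc1, Mcm2, Mcm3, Mcm5, Rrm1 and Ccne2. No member was lower at that level in counts, against 6.65% of all genes. The 3 heterozygous cultures all lay above the 3 wild-type ones for 5 genes (11.1%), Mcm2, Mcm3, Mcm5, Ccne2 and E2f7, and this held for 7.75% of all genes. The reverse held for 0 members and for 9.97% of all genes. The picture was less one-sided on TPM. By limma on log2(TPM + 1), 3 members (Orc1, Ccne2 and E2f7) were higher at an unadjusted p under 0.05 and 2 (Pold1 and Rfc5) lower, against 4.53% and 7.02% of all genes. All heterozygous TPM values lay above the wild-type ones for 5 members (Mcm2, Mcm4, Ccne1, Ccne2 and E2f7) and below them for 3 (Pold1, Rfc5 and Rpa1), against 7.1% and 9.29% of all genes. Fitted means were higher in heterozygous cultures for 26 genes (57.8%) and lower for 19, beside 49.6% higher over all genes. The median log2 difference, heterozygous minus wild-type, was 0.038 over the members and -0.0018 over all genes. Sex was not balanced between the genotypes: Xist was high in wild-type 10 and 16 and heterozygous 11, and Y-linked genes in wild-type 12 and heterozygous 15 and 18. With sex as a term in edgeR, 3 members were higher at an unadjusted p under 0.05, and the members' median was 0.016. Over all genes, 1464 had such a p in either direction with this term and 1790 without it.

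The data bounded most of these differences closely. The 95% interval of the difference lay inside 1.5-fold in either direction for 43 of 45 genes (95.6%). The exceptions were Orc1 and E2f2, the members with the fewest reads among their roles. Such an interval was found for 66.4% of all genes. Within the members' TPM range, 2.72 to 209, it was found for 78.8% of 11256 genes. That range does not match levels: the median TPM was 37.7 for the members and 15.1 over all genes. The median standard deviation of log2 CPM over the 6 cultures was 0.092 for the members. It was 0.133 for genes within that range and 0.153 for all genes. The summed TPM of all 45 genes was 2444 ± 17.5 in wild-type and 2490 ± 80.3 in heterozygous cultures (SD, n = 3 each), which is 0.240% to 0.255% of all transcripts in a library. The plot of differences with their intervals shows this by role.

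**Figure D1:**
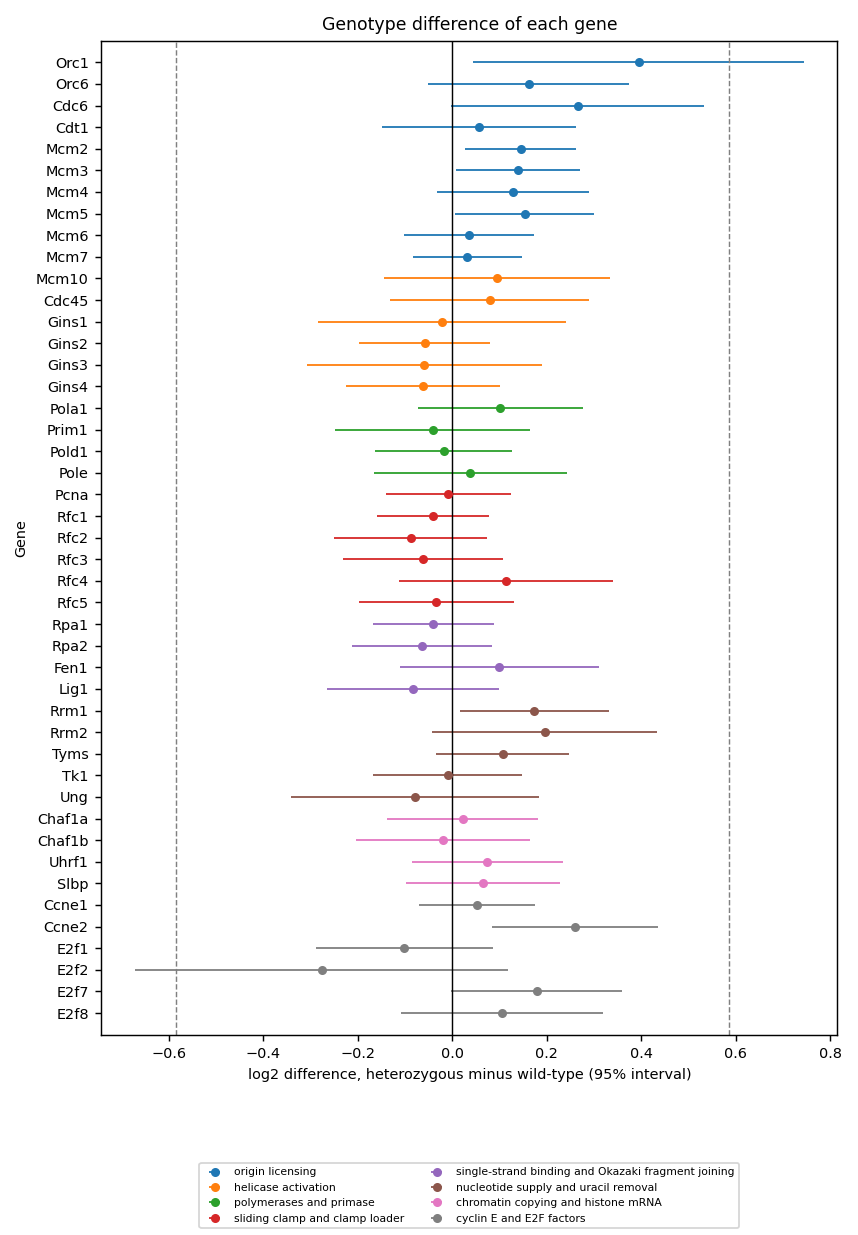
Fitted log2 difference, heterozygous minus wild-type, for each of the 45 genes on the y axis, with 95% intervals from the edgeR fit of 3 against 3 cultures; colours mark the role and the dashed lines mark 1.5-fold. All 10 origin licensing genes lie to the right of 0, and only the intervals of Orc1 and E2f2 cross a dashed line.

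The 10 origin licensing genes, Orc1, Orc6, Cdc6, Cdt1 and Mcm2 to Mcm7, all had a higher fitted mean in heterozygous cultures, with a median log2 difference of 0.14. Over all genes 49.6% had a higher fitted mean. None of the 10 passed the gene-wide test. By edgeR 4 of the 10 were higher at an unadjusted p under 0.05, against 5.56% of all genes. The 10 genes varied together over the same 6 cultures (median pairwise correlation 0.69), so they are not 10 separate observations. Mcm2, a subunit of the helicase (chr6:88883474-88898780, minus strand, mm10), was at 119, 113 and 117 CPM in wild-type 10, 12 and 16, against 125, 131 and 129.8 CPM in heterozygous 11, 15 and 18; values below follow this order. Every heterozygous culture was above every wild-type culture, by a narrow margin between wild-type 10 and heterozygous 11. The log2 difference of Mcm2 was 0.15 (SE 0.051, adjusted p = 0.343). Orc1, the largest subunit of the origin recognition complex (chr4:108579423-108614833, plus strand, mm10), stood at 9.80, 8.22 and 11.4 CPM in the wild-type and 11.4, 14.01 and 13.4 CPM in the heterozygous cultures in the same order. Wild-type 12 was lowest, and wild-type 16 and heterozygous 11 overlapped. Its log2 difference was 0.39 (SE 0.15, adjusted p = 0.370), the largest among the members and one of the least precise.

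Mcm7 and Mcm6, the helicase subunits with the highest TPM, differed by less than the spread between cultures. Mcm7 measured 155, 155 and 153 CPM in wild-type and 152, 163 and 158 CPM in heterozygous cultures, a log2 difference of 0.03 (SE 0.050, adjusted p = 0.823) with a 95% interval of -0.08 to 0.15. Mcm6 measured 159, 166 and 167 CPM in wild-type and 158, 178 and 169 CPM in heterozygous cultures, a log2 difference of 0.04 (SE 0.060, adjusted p = 0.836). For both genes heterozygous 11 was the lowest culture and heterozygous 15 the highest. Within the runs 10 to 12 and 15 to 18 the difference was -0.03 and 0.07 for Mcm7 and -0.04 and 0.05 for Mcm6. Among the other licensing genes the fitted log2 differences were 0.14 for Mcm3, 0.13 for Mcm4, 0.15 for Mcm5, 0.16 for Orc6, 0.27 for Cdc6 and 0.06 for Cdt1, which with Cdc6 loads the helicase. The adjusted p of these 6 genes ran from 0.39 for Mcm3 to 0.82 for Cdt1.

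The direction of the licensing genes held for 8 of 10 in each run of culture numbers taken alone, for 8 of 10 without heterozygous 15, and for 8 of 10 by limma on log2(TPM + 1), where Mcm3 and Mcm7 were each at -0.02. In the first registered block the median difference of the 10 genes was 0.175. In the later registered pair, 1 culture per genotype, it was 0.0088. There Orc1, Orc6, Cdt1, Mcm6 and Mcm7 were lower in the heterozygous culture. Averaged over the 10 genes, log2 CPM relative to each gene's mean was -0.11, -0.11 and -0.02 in wild-type 10, 12 and 16 and -0.01, 0.17 and 0.06 in heterozygous 11, 15 and 18. Wild-type 16 and heterozygous 11 were nearly level, and heterozygous 15 stood highest. Without wild-type 16, 1 member passed the gene-wide test: Orc6, a subunit of the origin recognition complex, at a log2 difference of 0.28 and an adjusted p of 0.0405. In that fit 5.93% of 15113 genes passed, so Orc6 was 1 of 896, and 3.69% passed as higher. Exons of Orc6 overlap those of Vps35, on the opposite strand, over 171 bases. The whole count of Vps35 was 373% of that of Orc6, so reads of the pair may be mixed. In the fit of all 6 cultures Vps35 differed by 0.14 (SE 0.056) and Orc6 by 0.16 (SE 0.092).

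Promoter sequence was read because the licensing genes varied together across cultures and E2F sites are a textbook control element of replication genes. The windows run from 250 bases before to 50 bases after the RefSeq start in GRCm38.p6, the same assembly as mm10, and 38 of the 45 genes had at least 1. Mcm4, Gins1, Gins2, Gins4, Pole, Rfc2 and Ccne2 had none in the table. Each window was searched on both strands for the E2F words TTTCCCGC, TTTGGCGC, TTTCGCGC and TTTGCCGC, which can overlap one another. At least 1 word was found for 15 of 38 members (39.5%) and for 704 of 27025 genes in the table (2.6%). Among the licensing genes 7 of 9 held one. A match says only that these letters are present. Stretches of 30 bases around a word are printed 5′ to 3′ on the gene's strand for the licensing genes that held one, the role with the most matches, with the word in capitals. Those other than Mcm7 were added after the values were seen.
Mcm7, chr5:138172030-138172059, minus strand: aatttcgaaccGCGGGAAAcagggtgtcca
Mcm6, chr1:128359734-128359763, minus strand: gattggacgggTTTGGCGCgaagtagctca
Mcm3, chr1:20820275-20820304, minus strand: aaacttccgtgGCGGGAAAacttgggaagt
Mcm5, chr8:75109349-75109378, plus strand: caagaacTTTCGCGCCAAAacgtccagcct
Cdt1, chr8:122568035-122568064, plus strand: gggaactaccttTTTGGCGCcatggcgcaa
Cdc6, chr11:98908002-98908031, plus strand: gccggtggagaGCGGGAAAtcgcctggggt
Orc1, chr4:108579416-108579445, plus strand: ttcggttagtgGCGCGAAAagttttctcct

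The capitals of Mcm5 cover 2 overlapping words, one on each strand. In Mcm6 3 words lay before the start, at 110, 106 and 47 bases upstream, and the first pair overlap. The 250 bases before the Mcm6 start are given whole because this window held more words than that of any other member; the capitals mark the same words.
Mcm6 upstream, chr1:128359706-128359955, minus strand: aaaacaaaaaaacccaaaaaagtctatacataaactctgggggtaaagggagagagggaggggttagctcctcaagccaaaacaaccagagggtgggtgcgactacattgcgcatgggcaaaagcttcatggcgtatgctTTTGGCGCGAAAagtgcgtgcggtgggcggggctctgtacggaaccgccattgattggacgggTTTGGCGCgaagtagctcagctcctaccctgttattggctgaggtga

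For each other role with a match, the member with the highest TPM among those with a word is shown in the same way.
Uhrf1, chr17:56304117-56304146, plus strand: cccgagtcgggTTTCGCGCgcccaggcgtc
E2f7, chr10:110745230-110745259, plus strand: cccgcgtccccGCGGGAAAcgctcccgcgt
Gins3, chr8:95633507-95633536, plus strand: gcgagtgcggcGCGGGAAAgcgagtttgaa
Pold1, chr7:44548766-44548795, minus strand: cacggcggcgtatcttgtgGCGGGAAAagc
Lig1, chr7:13278841-13278870, plus strand: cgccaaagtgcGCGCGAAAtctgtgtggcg
Rfc3, chr5:151651200-151651229, minus strand: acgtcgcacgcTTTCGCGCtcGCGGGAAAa

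The stretch of Rfc3 holds a second word near its end, on the other strand. Members with and without a word had similar median genotype differences. Of the 15 with a word 10 were higher in heterozygous cultures, with a median log2 difference of 0.057. Of the 23 without one 13 were higher, with a median of 0.052. All heterozygous CPM values lay above the wild-type ones for 3 of the 15 and 1 of the 23, against 7.75% of all genes. Of the 7 members without a window 3 were higher, with a median of -0.021. The E2f1 window lies inside the gene by GENCODE coordinates, so words elsewhere would be missed. A link between the words and the differences was not tested. The words were found in 1 of 34 G2 and mitosis genes. The other motifs had a different distribution: the CCAAT box was found in 25 of 38 members (65.8%), 26 of 34 G2 and mitosis genes and 41.1% of all genes, and TTTGAA in 6 of 38 members (15.8%), 23 of 34 G2 and mitosis genes and 20.2% of all genes.

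Helicase activation genes showed no common direction. Of the 6, Mcm10 and Cdc45 were higher in heterozygous cultures, at log2 differences of 0.10 and 0.08, and the 4 GINS subunits were lower by fitted mean. Gins2, the GINS subunit with the highest TPM, measured 60.5, 56.6 and 62.2 CPM in wild-type and 57.0, 59.0 and 56.2 CPM in heterozygous cultures. The groups overlapped, and the log2 difference was -0.06 (SE 0.060, adjusted p = 0.714). Gins4, another GINS subunit, measured 28.0, 29.1 and 30.7 CPM in wild-type and 27.6, 28.0 and 28.5 CPM in heterozygous cultures with a log2 difference of -0.06 (SE 0.070, adjusted p = 0.746). Gins1 and Gins3 were at -0.02 and -0.06. On the TPM scale the difference of Gins2 was 0.0093.

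In CPM the genotypes overlapped for each of the 4 polymerase and primase genes, whereas on TPM Pold1 was lower in every heterozygous culture. Pold1, the catalytic subunit of the lagging-strand polymerase delta, measured 61.7, 57.7 and 56.7 CPM in wild-type and 55.2, 59.8 and 59.2 CPM in heterozygous cultures, a log2 difference of -0.02 (SE 0.063, adjusted p = 0.932). In TPM it stood at 42.4, 36.0 and 38.9 in wild-type and 33.96, 33.7 and 33.4 in heterozygous cultures, with no overlap. The difference of Pold1 by limma on log2(TPM + 1) was -0.20 (SE 0.079, adjusted p = 0.408), and with effective length as an offset in edgeR -0.19. Within the run 10 to 12 the CPM difference was -0.11 and within 15 to 18 it was 0.07. Prim1, the catalytic primase subunit, measured 32.4, 28.6 and 31.5 CPM in wild-type and 28.2, 33.1 and 28.7 CPM in heterozygous cultures, with a log2 difference of -0.04 (SE 0.090, adjusted p = 0.880). Pola1, the catalytic subunit of polymerase alpha, measured 37.9, 38.6 and 33.6 CPM in wild-type and 38.5, 41.3 and 38.5 CPM in heterozygous cultures, with a log2 difference of 0.10 (SE 0.076, adjusted p = 0.605). Wild-type 16 was the low value of Pola1, and the other 5 cultures lay close together; its difference was 0.01 within the run 10 to 12 and 0.25 within 15 to 18. Pola1 is on the X chromosome, and Xist was high in wild-type 10, wild-type 16 and heterozygous 11 while Y-linked genes were detected in the other 3 cultures. Pole, the catalytic subunit of the leading-strand polymerase epsilon, was at 0.04 (SE 0.089).

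Pcna, the sliding clamp that holds polymerases on DNA (chr2:132249162-132253314, minus strand, mm10), did not differ beyond its spread. Its 6 values were 168, 162 and 174 CPM in wild-type and 162, 176 and 163 CPM in heterozygous cultures. The log2 difference was -0.01 (SE 0.058, adjusted p = 0.969), with a 95% interval of -0.14 to 0.13. Its named pseudogene copies held 57 counts over the 6 libraries, against 13934 for Pcna. Of the 5 genes of the clamp loader RFC, which opens the clamp and places it on DNA, only Rfc4 had a higher fitted mean, at 0.11. Rfc2 measured 54.3, 53.3 and 47.1 CPM in wild-type and 49.0, 47.6 and 49.1 CPM in heterozygous cultures. The heterozygous values were tightly grouped and lay within the wild-type range, and the log2 difference was -0.09 (SE 0.070, adjusted p = 0.628); it was -0.13 within the run 10 to 12 and 0.04 within 15 to 18. The others were at -0.04 for Rfc1, -0.06 for Rfc3 and -0.03 for Rfc5. On TPM Rfc5 was lower in every heterozygous culture, at 38.8, 36.8 and 44.4 in wild-type and 25.5, 34.4 and 34.8 in heterozygous cultures. Its difference by limma on log2(TPM + 1) was -0.34 (SE 0.13, adjusted p = 0.408).

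In CPM the genotypes overlapped for each of the single-strand binding and Okazaki fragment genes. Rpa1, the large subunit of the single-strand binding complex RPA, measured 119, 113 and 126 CPM in wild-type and 115, 117 and 116 CPM in heterozygous cultures, a log2 difference of -0.04 (SE 0.055, adjusted p = 0.798). On TPM the Rpa1 groups did not overlap, with a lowest wild-type value of 91.9 and a highest heterozygous value of 90.6. Lig1, the ligase that joins Okazaki fragments, measured 86.4, 78.0 and 73.1 CPM in wild-type and 70.8, 80.5 and 73.3 CPM in heterozygous cultures, a log2 difference of -0.08 (SE 0.079, adjusted p = 0.691); it was -0.21 within the run 10 to 12 and 0.07 within 15 to 18. Fen1, the flap endonuclease that trims those fragments, measured 44.97, 45.5 and 44.3 CPM in wild-type and 44.8, 55.2 and 44.5 CPM in heterozygous cultures. Of its 6 values, 5 lay close together and heterozygous 15 stood above them. The log2 difference of Fen1 was 0.10 (SE 0.092, adjusted p = 0.679), and without heterozygous 15 it was -0.0086. Within the run 10 to 12 it was -0.01 and within 15 to 18 it was 0.16. Rpa2 was at -0.06.

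Ribonucleotide reductase, which makes deoxynucleotides from ribonucleotides, was higher by fitted mean in both subunits. Rrm1 (chr7:102441695-102469771, plus strand, mm10) measured 271, 272 and 290.0 CPM in wild-type and 288, 330.4 and 321 CPM in heterozygous cultures. Heterozygous 15 and 18 were above all wild-type cultures, and heterozygous 11 was level with wild-type 16. The log2 difference was 0.17 (SE 0.069, adjusted p = 0.377); within the run 10 to 12 it was 0.09, within 15 to 18 0.17, and in the later registered pair, 1 culture per genotype, -0.01. On TPM the Rrm1 difference was smaller, 0.05 (SE 0.079) by limma on log2(TPM + 1), and with the length offset it was 0.06. Rrm2 measured 203, 196 and 249 CPM in wild-type and 246, 269 and 227 CPM in heterozygous cultures, with wild-type 10 and 12 below the rest. Its log2 difference was 0.20 (SE 0.10, adjusted p = 0.475), 0.30 within the run 10 to 12 and -0.01 within 15 to 18. Tyms, thymidylate synthase, was at 0.11, Tk1, thymidine kinase, at -0.01, and Ung, the uracil glycosylase that removes uracil from DNA, at -0.08.

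The 4 chromatin copying and histone mRNA genes differed by less than their spread. Uhrf1, which brings the maintenance methyltransferase to newly copied DNA, measured 137, 124 and 134 CPM in wild-type and 128, 147 and 141 CPM in heterozygous cultures, a log2 difference of 0.07 (SE 0.069, adjusted p = 0.684), which was -0.03 within the run 10 to 12 and 0.11 within 15 to 18. Slbp, which binds the stem-loop of histone mRNA, measured 62.3, 59.9 and 68.0 CPM in wild-type and 66.5, 69.9 and 62.4 CPM in heterozygous cultures, a log2 difference of 0.07 (SE 0.071, adjusted p = 0.730), which was 0.12 and -0.04 within these runs. The groups overlapped for both genes. Chaf1a and Chaf1b, subunits of the histone chaperone CAF-1, were at 0.02 and -0.02.

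Among cyclin E and E2F genes, Ccne2 had the smallest unadjusted p of the 45. It encodes cyclin E2, which drives CDK2 at the G1 to S transition (chr4:11191351-11204779, plus strand, mm10). Its levels were 24.5, 26.9 and 25.8 CPM in wild-type and 29.1, 31.8 and 31.5 CPM in heterozygous cultures, with no overlap. The log2 difference was 0.26 (SE 0.076, adjusted p = 0.313), with a 95% interval of 0.09 to 0.44; it was 0.18 within the run 10 to 12, 0.29 within 15 to 18 and 0.17 in the later registered pair. Exons of Ccne2 overlap those of Ints8, on the opposite strand, over 609 bases, and Ints8 differed by 0.11 (SE 0.056). Ccne1, encoding cyclin E1, measured 59.0, 57.7 and 58.3 CPM in wild-type and 60.6, 58.9 and 62.1 CPM in heterozygous cultures, a log2 difference of 0.05 (SE 0.053, adjusted p = 0.714). E2f7 and E2f8, repressive E2F factors, were at 0.18 and 0.10, and E2f1 and E2f2, activating ones, at -0.10 and -0.28. The 3 heterozygous values of E2f7 were 45.6, 43.9 and 41.3 CPM against 39.1, 35.3 and 41.3 CPM in wild-type cultures, which only just separates heterozygous 18 from wild-type 16. The direction of E2f2 turned on TPM, to 0.10 (SE 0.29) by limma on log2(TPM + 1), where heterozygous 18 stood at 5.01 TPM and the other 5 cultures at 1.81 to 2.87. E2f2 was the lowest member, at 6.91, 7.69 and 5.95 CPM in wild-type and 4.88, 5.87 and 6.34 CPM in heterozygous cultures.

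**Figure D2:**
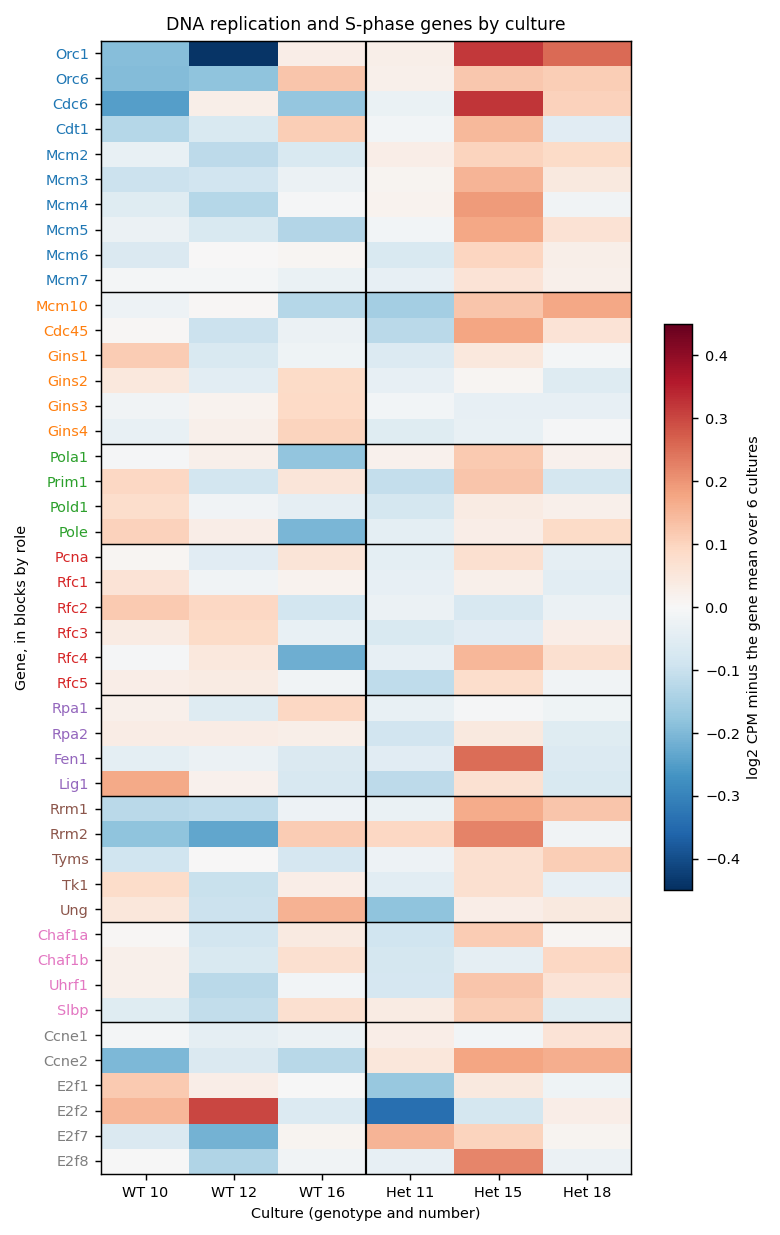
Log2 CPM of each gene minus its mean over the 6 cultures, with genes on the y axis in blocks by role and cultures on the x axis, 3 wild-type left of the line and 3 heterozygous right of it. Red is above and blue below the gene's mean; the heterozygous 15 column is the reddest and the licensing block is mostly blue in wild-type 10 and 12.

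Levels were compared between genes as mean TPM over the 6 cultures. Among the helicase subunits the order was Mcm7 (107 TPM), Mcm6 (98.6), Mcm3 (83.4), Mcm5 (78.1), Mcm4 (63.8) and Mcm2 (63.0). Mcm4 was above Mcm2 in 4 of 6 cultures, and Mcm7 above Mcm6 and Mcm3 above Mcm5 in 5 of 6, so these neighbours were not cleanly separated, whereas Mcm6 exceeded Mcm3 and Mcm5 exceeded Mcm4 in all 6. The 4 GINS subunits differed more: Gins2 stood at 64.4 TPM, Gins4 at 40.7, Gins1 at 20.0 and Gins3 at 7.29, each above the next in all 6 cultures. In RFC, Rfc2 stood at 83.4 TPM and the other 4 genes between 35.8 and 39.1 TPM, with no consistent order. Pcna was highest of all members at 209 TPM, followed by Rrm2 at 192 and Rrm1 at 152. Cyclin E1 (Ccne1) stood at 55.4 TPM and Ccne2 at 19.9. E2f2 was lowest at 2.72 TPM.

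**Figure D3:**
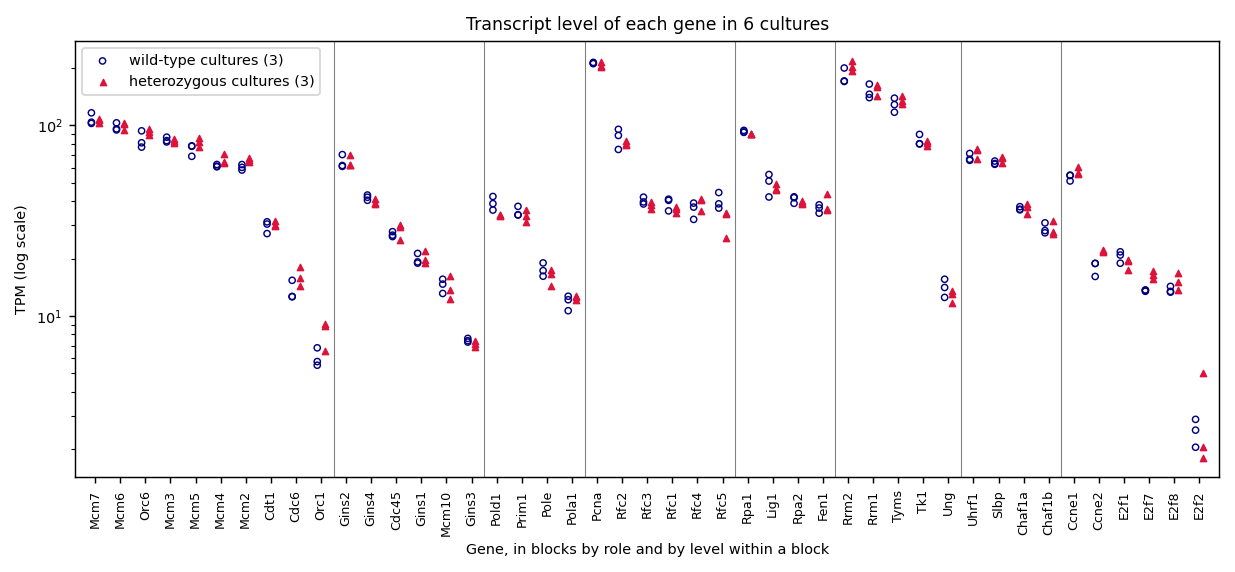
TPM on a log scale for each of the 45 genes in the 3 wild-type (circles) and 3 heterozygous (triangles) cultures, ordered by level within each role. Pcna is highest and E2f2 lowest, and the genotypes overlap or lie close for nearly every gene compared with the spread between genes.

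The summed TPM of the 6 helicase subunits was 486 ± 15.9 in wild-type and 502 ± 12.1 in heterozygous cultures (SD, n = 3 each), and the groups overlapped. The summed TPM of Ccne1 and Ccne2 was 69.9 to 73.7 in wild-type and 77.0 to 82.4 in heterozygous cultures. RPA (Rpa1 and Rpa2 together) separated the other way by a narrow margin, at 131.4 to 135.8 TPM in wild-type and 128.9 to 130.5 in heterozygous cultures. The 5 RFC genes summed to 241 ± 9.06 TPM in wild-type and 225 ± 9.79 TPM in heterozygous cultures, with overlap. The sums of GINS, CAF-1, the E2F genes, the polymerases with primase, and ribonucleotide reductase also overlapped. Among single genes, all heterozygous TPM values lay above the wild-type ones for 7.1% and below them for 9.29%. Exons of 18 members overlap another gene and the strand setting of the counting is not known here, so reads of such pairs may be mixed. For 10 members the partner's whole count was over 10% of the member's own: Ccne2, Cdc45, Chaf1a, Fen1, Gins2, Lig1, Mcm7, Orc6, Rfc4 and Rfc5.

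The heterozygous cultures differed among themselves by more than the 2 genotype means did, and the wild-type cultures by less. The mean over the 45 genes, relative to each gene's own mean, was -0.012, -0.048 and -0.013 in wild-type 10, 12 and 16 and -0.045, 0.092 and 0.025 in heterozygous 11, 15 and 18. Heterozygous 15 was the highest culture for 24 of 45 genes (53.3%), against 15.8% of all genes. Heterozygous 11 was the lowest for 16 genes (35.6%), against 12.3% of all genes, and wild-type 12 for 13 (28.9%), against 19.6%. Without heterozygous 15, 22 members were higher in the heterozygous group with a median log2 difference of -0.0044. Within the run 10 to 12, 17 members were higher with a median of -0.028, within 15 to 18, 30 were higher with a median of 0.049, and in the later registered pair 14 were higher with a median of -0.039.

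Markers of other cell types also differed between these cultures. The summed TPM of 8 macrophage markers, all tested, was 213, 214 and 296 in wild-type 10, 12 and 16 and 185, 335 and 311 in heterozygous 11, 15 and 18, so it was lowest in heterozygous 11 and highest in 15, while the members' mean was highest in 15 and lowest in wild-type 12. Erythroid markers (9 genes, 7 tested) summed to 158, 126 and 437 TPM and 249, 434 and 504 TPM. Endothelial markers (6 genes) summed to 10.2 to 13.9 TPM in wild-type and 13.1 to 17.5 TPM in heterozygous cultures, highest in 15. Skeletal muscle markers (8 genes, 7 tested) summed to 378 to 577 TPM in wild-type and 366 to 501 TPM in heterozygous cultures, lowest in 15. Epithelial markers (6 genes) spanned 92.5 to 235 TPM, and neural and Schwann markers (6 genes, 5 tested) 98.2 to 218 TPM. No marker of these lists was at 0 in all 6 cultures. The part of these cells in the members' values was not tested.

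**Figure D4:**
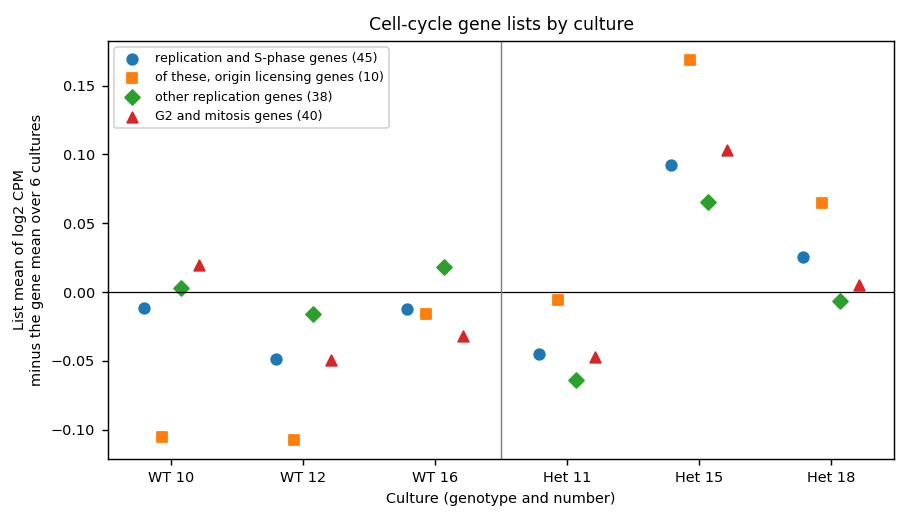
Mean of log2 CPM minus the gene mean over 6 cultures (y axis) for 4 gene lists in each culture (x axis, wild-type left of the line). Heterozygous 15 is the highest culture for every list drawn, at 0.092 for the 45 members and 0.17 for their 10 licensing genes.

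Across the 6 cultures the members' log2 CPM moved together weakly. The median Pearson correlation over 990 pairs was 0.29, and 7.88% of pairs exceeded 0.8, against a median of -0.0025 and 4.66% over pairs of all genes. All points share 6 libraries, so the correlations are a description. The 10 licensing genes had a median of 0.69 with all 45 pairs above 0, G2 and mitosis genes 0.43, and the cyclin E and E2F genes 0.024. Without heterozygous 15 the members' median was 0.14, and on log2(TPM + 1) it was 0.15. Cdc45, Uhrf1 and Mcm7 were most like the mean of the other members (r = 0.98, 0.94 and 0.92), and Rfc2 and Gins3 ran against it (-0.51 and -0.46). Genes outside the lists were ranked only if their SD of log2 CPM was at least the members' median SD, so steadier genes were left out. Among these, the genes most like the member mean were Stfa2l1 (r = 0.99), S100a9 (0.98), Glrx, Samd9l, Ms4a7, Ifi211, Spdl1 and Il1r1. Stfa2l1 held only 8 to 32 counts per library. S100a9, a myeloid calcium-binding protein, measured 16.5, 13.7 and 16.6 CPM in wild-type and 10.7, 36.7 and 21.6 CPM in heterozygous cultures. Spdl1 (r = 0.97) measured 26.4, 24.6 and 26.6 CPM in wild-type and 25.3, 31.9 and 27.0 CPM in heterozygous cultures. These r are the highest of many genes ranked over 6 cultures, so their height partly reflects that selection.

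Other genes of the same pathways were read from the same fit, and none passed by edgeR. Of 38 other replication genes 18 had a higher fitted mean, with a median log2 difference of -0.0079; the smallest unadjusted p were those of Ticrr (treslin), which acts in helicase activation, at 0.20 (SE 0.082) and Pold4, a small polymerase delta subunit, at -0.34 (SE 0.14). Of 26 other S-phase nucleotide, chromatin and repair genes 18 were higher (median 0.035), with Dnmt1, the maintenance methyltransferase, at 0.23 (SE 0.073) and Dck, deoxycytidine kinase, at 0.19 (SE 0.063). Of 22 E2F and RB regulators 15 were higher (median 0.068), with the pocket protein gene Rbl2 at -0.30 (SE 0.091) and Lin54 of the DREAM complex at 0.17 (SE 0.082). Of 10 D-type cyclin and CDK inhibitor genes 4 were higher (median -0.037), with Cdkn2c at -0.38 (SE 0.15) and Cdkn1b at -0.20 (SE 0.086). Of 40 G2 and mitosis genes 27 were higher (median 0.038). Hmmr, a spindle-associated protein, measured 77.1, 79.6 and 77.0 CPM in wild-type and 89.4, 101 and 94.2 CPM in heterozygous cultures, a log2 difference of 0.28 (SE 0.059, adjusted p = 0.313). All 3 heterozygous values of Hmmr exceeded the wild-type ones. Anln, the cytokinesis protein anillin, was at 0.32 (SE 0.080, adjusted p = 0.313).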

How the data were processed

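Per the labels' protocols, TruSeq libraries (Illumina) were prepared from the total RNA of 3 wild-type and 3 heterozygous cultures. The submitters' processing notes name RSEM 1.3.1, DESeq2 and mm10. No source used here gives the aligner, annotation release or strand setting. The authors deposited, per library, expected counts (RSEM estimates, 7.53% to 8.80% of them not whole), TPM (per length and library) and FPKM (not used for a test). The deposited effective lengths, in bases, served as an offset in 1 alternative.

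Symbols and coordinates came from GENCODE by Ensembl number, for 51633 of 51826 genes. Expected counts were rounded, filterByExpr kept 14652 genes, and the genotypes were compared without covariates by the quasi-likelihood test of edgeR 4.0.16 (R 4.3.3) with TMM scaling and Benjamini-Hochberg adjustment over all genes. SE, intervals (95%) and p are from that fit. Alternatives used limma 3.58.1 and DESeq2 1.42.0. Library totals were 11025286 to 21885101 counts, the biological coefficient of variation 11.3% and the median SE 0.11. On simulated counts for 14652 genes, edgeR found 65.7% of the genes set to a 1.5-fold change and 94.0% of those set to a 2-fold change, and made 7 false calls. Every gene was simulated with the same dispersion, and 67 genes were set to each of these changes, so recovery in the data can differ.

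The members and lists were chosen with earlier results of these data known. In full are, per role, the 2 members with the highest TPM and the one with the smallest unadjusted p, plus Lztr1. Per other list, the 2 genes with the smallest unadjusted p are given. Outside the lists, the 8 genes that correlate best with the member mean are given. These were taken from genes of at least 1 TPM whose SD of log2 CPM is at least the members' median SD. Genes named beside these were chosen after their values were seen. Promoter sequences are RefSeq's (GRCm38.p6). Results of each marker list are reported.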

Additional observations from a re-analysis of the deposited data

How the results depend on the processing

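Lztr1 kept its direction in each alternative run. Its log2 difference was -0.92 by limma on log2(TPM + 1) (adjusted p = 0.260), -0.94 on log2(TPM + 0.1) (0.267) and -0.91 with effective length as an offset (0.0852), each above the threshold; within cultures 15 to 18 it was -0.90 and in the later registered pair -0.86. Leaving out 1 culture gave -1.06 to -0.97, and the call was kept only without wild-type 16. The number of genes called was 32 with no filter on low counts, 112 by DESeq2, 0 and 0 by limma at the pseudocounts 1 and 0.1, 0 with the length offset, and 0 to 896 with 1 culture left out, 896 being without wild-type 16. No member was called in these fits apart from Orc6 without wild-type 16, so the count ran from 0 to 1. Members higher in heterozygous cultures numbered 17 within cultures 10 to 12 and 14 in the later pair, with medians of -0.028 and -0.039; with 1 culture left out they numbered 22 (without heterozygous 15) to 33 (without heterozygous 11), with medians of -0.0044 to 0.072. The median correlation was 0.145 on log2(TPM + 1) and 0.139 to 0.372 with 1 culture left out. In 301 alternative fits of the 19 members given in full, 0 passed, with a lowest adjusted p of 0.0509 for Rrm2, and 17 changed sign, all of small differences. These were Mcm7 on TPM (-0.018 and -0.018), Gins2 on TPM (0.0093 and 0.0094) and with the length offset (0.028), and Pcna with no filter (0.0018). With 1 culture left out, sign changes fell in Mcm6 (-0.0049 to 0.079), Pold1 (-0.040 to 0.027), Prim1 (-0.12 to 0.0055), Pcna (-0.047 to 0.022), Rpa1 (-0.071 to 0.0013) and Fen1 (-0.0086 to 0.16). Of the 45 members 27 kept their sign in 16 alternative fits. No paired analysis was possible because the culture numbers differ between the groups. Differences of 1.5-fold and below could be missed. In simulated counts edgeR found 65.7% of the 67 genes set to a 1.5-fold change. There every gene had the same dispersion, and far more genes were changed than the main fit called in the data. That share is therefore not an estimate of recovery in these data.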
